A study of Mus musculus with 6 samples.

Results

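The 69 heat shock and DnaJ chaperone genes described here are a small subset of the 24346 gene symbols measured in mouse prostate stromal cells. They were chosen by symbol alone: Hsp90, Hspa, Hspb, Hspd, Hspe and Hsph genes with a number, and Dnaja, Dnajb and Dnajc genes with a number. That pattern found 72 symbols, and 3 of them, Hspa5, Hsp90b1 and Dnajb9, were set aside as endoplasmic reticulum chaperones. The pattern uses no measured value, though the choice was made with earlier results of these data known. The working name for such a set is cytosolic chaperones, but 8 of the 69 genes encode proteins known from mitochondria and 9 encode proteins of the endoplasmic reticulum or its membrane. The genes are therefore named here by their families.

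The cells were primary stromal cells from prostates of C57BL/6 mice aged 8 to 12 weeks, dissociated, grown on collagen I with 1e-10 M dihydrotestosterone and used as fresh cultures. Cells that had not attached 30 min after replating were discarded. The S37A group (3 libraries) carried the S37A form of β-catenin in the FU-CGW lentivirus, and the vector group (3 libraries) is labelled as vector, so both groups are taken as lentivirus-infected. In the S37A form of β-catenin, the carrier of the canonical Wnt signal, alanine takes the place of a serine that is phosphorylated before the protein is degraded. Nothing in the labels ties the 3 libraries of a group to separate animals or cultures. The p-values therefore set a difference only against the spread among these libraries, and that spread may be technical. The comparison asks which transcripts differed in level between S37A and vector cells. In such bulk samples, fewer cells of a type and less RNA per cell cannot be told apart.

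Heat shock proteins are chaperones: they bind unfolded stretches of other proteins and help them fold, refold or reach degradation. Hsp70 proteins do this in cycles of ATP hydrolysis, which DnaJ proteins start through their J domain and Hsp110 proteins reset by exchanging the nucleotide. Hsp90 takes over nearly folded clients such as steroid receptors and kinases, the mitochondrial chaperonin of Hspd1 and Hspe1 folds imported proteins, and small heat shock proteins hold unfolded proteins without using ATP. Many of these genes are induced by heat shock factors, above all Hsf1, which bind inverted repeats of nGAAn units in promoters. In stroma and smooth muscle, small heat shock proteins such as Hspb1, Hspb6 and Hspb8 are also known for their ties to actin filaments.

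Promoter sequence was looked up for all members, since heat shock factor sites are the best known shared feature of these genes. Of the 69 members, 55 had a RefSeq promoter entry (GRCm38.p6, the same assembly as mm10), with 72 windows of 250 bases upstream of a gene start. The members without an entry were Dnajc2, Dnajc5, Dnajc5b, Dnajc11, Dnajc12, Dnajc18, Dnajc22, Dnajc30, Hsp90aa1, Hsp90ab1, Hspa8, Hspa9, Hspa13 and Hspb2. A heat shock element of 3 units (GAANNTTCNNGAA or TTCNNGAANNTTC) was found in the windows of 3 members (5.45%), Dnajb6, Hspd1 and Hspe1, against 0.514% of all 27025 genes with an entry (0.466% of their 32851 windows). Hspd1 and Hspe1 share the same element in 1 promoter, and it is counted for each of them. An element of 2 units (GAANNTTC or TTCNNGAA, which lies inside each 3-unit element) was found in 14 members (25.5%), against 14.5% of all genes (12.8% of windows). These 14 include that pair and the nearly identical copies Hspa1a and Hspa1b. Each of these searches covers both strands. The letters CTTTGATC or their reverse complement GATCAAAG, a form of the site of TCF/LEF factors through which β-catenin acts, were found in 1 member, Hspb6 (1.82%), against 0.925% of all genes (0.801% of windows). A match describes the letters in the window and not a bound site. The sequences below are shown 5′ to 3′ on the gene's strand, in lower case, with bases of a heat shock element match in capitals. The promoter shared by the divergent genes Hspd1 and Hspe1 (chr1:55087933-55088147, plus strand, upstream of Hspe1) and that of Dnajb6 (chr5:29735648-29735897, plus strand) hold the 3-unit elements. Hspa1a (chr17:34972157-34972406, minus strand), the classical heat-inducible Hsp70 gene, and Hsph1 (chr5:149636316-149636565, minus strand) hold 2-unit elements. Dnajb4 (chr3:152193846-152194095, minus strand), Hspa2 (chr12:76404120-76404369, plus strand) and Hspb8 (chr5:116422865-116423114, minus strand) are shown because their transcripts were higher in S37A cells. The windows end at RefSeq starts, which can differ from the starts in GENCODE, the source of the gene positions given below. By the GENCODE positions, the sequences of Hspd1-Hspe1, Dnajb6, Hsph1, Dnajb4 and Hspa2 lie partly or wholly within the gene.
Hspd1-Hspe1 shared promoter: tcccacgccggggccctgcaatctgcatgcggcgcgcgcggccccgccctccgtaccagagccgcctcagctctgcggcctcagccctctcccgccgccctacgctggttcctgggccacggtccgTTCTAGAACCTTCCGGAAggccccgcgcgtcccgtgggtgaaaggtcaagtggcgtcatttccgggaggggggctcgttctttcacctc
Dnajb6: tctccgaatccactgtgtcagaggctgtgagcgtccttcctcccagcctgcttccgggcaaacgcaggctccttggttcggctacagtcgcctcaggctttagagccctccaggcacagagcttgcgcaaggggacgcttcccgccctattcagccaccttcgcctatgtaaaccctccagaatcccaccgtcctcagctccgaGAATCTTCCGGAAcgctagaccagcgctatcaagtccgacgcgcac
Hspa1a: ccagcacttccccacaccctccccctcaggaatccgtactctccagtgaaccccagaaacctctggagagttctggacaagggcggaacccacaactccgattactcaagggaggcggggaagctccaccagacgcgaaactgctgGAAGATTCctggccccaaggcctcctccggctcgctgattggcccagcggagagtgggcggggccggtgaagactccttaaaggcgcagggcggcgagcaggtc
Hsph1: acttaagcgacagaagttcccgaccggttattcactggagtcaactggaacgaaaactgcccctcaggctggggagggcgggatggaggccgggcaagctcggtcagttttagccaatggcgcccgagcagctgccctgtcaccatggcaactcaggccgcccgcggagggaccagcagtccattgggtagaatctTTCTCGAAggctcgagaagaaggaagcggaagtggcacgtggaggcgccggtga
Dnajb4: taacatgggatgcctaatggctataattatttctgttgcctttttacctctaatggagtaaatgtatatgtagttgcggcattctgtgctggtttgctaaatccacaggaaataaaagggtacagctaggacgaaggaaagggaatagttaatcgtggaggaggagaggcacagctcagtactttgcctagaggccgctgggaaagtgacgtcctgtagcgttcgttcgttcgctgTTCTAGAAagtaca
Hspa2: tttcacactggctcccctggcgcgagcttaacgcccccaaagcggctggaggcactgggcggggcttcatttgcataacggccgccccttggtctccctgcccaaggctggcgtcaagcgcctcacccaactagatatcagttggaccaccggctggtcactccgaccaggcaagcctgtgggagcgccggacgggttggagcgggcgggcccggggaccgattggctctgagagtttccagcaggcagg
Hspb8: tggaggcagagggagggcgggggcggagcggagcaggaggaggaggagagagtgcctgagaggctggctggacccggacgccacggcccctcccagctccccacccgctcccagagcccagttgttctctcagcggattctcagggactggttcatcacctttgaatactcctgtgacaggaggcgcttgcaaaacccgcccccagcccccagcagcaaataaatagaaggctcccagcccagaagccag
Counted from RefSeq starts, the last base of the match lay 72 bases upstream of Hspe1 and 34 upstream of Dnajb6. It lay 97 upstream of Hspa1a, 47 upstream of Hsph1 and 7 upstream of Dnajb4. The Hspa2 and Hspb8 windows held none of the searched letters. The 250 bases upstream of Hspa1b, a neighbouring copy, are 98.8% identical to those of Hspa1a.

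Levels are in FPKM, the fragments of a transcript divided by its length and by the mapped fragments of its library, so levels can be compared between genes per length. The depth inferred from the authors' confidence intervals was 41.1 to 47.3 M fragments in S37A libraries and 46.7 to 51.5 M in vector libraries. Ctnnb1, the introduced gene, measured 132, 144 and 146 FPKM in the S37A libraries and 116, 99.1 and 116 FPKM in the vector libraries (log2 difference 0.35, SE 0.07, adjusted p = 0.0158 by limma with Benjamini-Hochberg adjustment over all genes). The adjusted p of Ctnnb1 was 0.0534 without S37A 2 and 0.0585 without S37A 3. Reads of the introduced and the cells' own Ctnnb1 are not separated. A gene is called when its adjusted p is under 0.05. Of 10 stroma and smooth muscle markers, 5 were called higher (Acta2, Tagln, Myh11, Cnn1 and Des) and 1 lower (Pdgfra), with summed levels of 11720 to 11790 FPKM in S37A and 10170 to 10530 FPKM in vector libraries. Of 10 tested macrophage markers, 8 were called higher, with summed levels of 60.8 to 68.9 FPKM in S37A and 23.8 to 30.0 FPKM in vector libraries. For comparison, 6.06% of all tested genes were called higher and 19.9% lower. None of 6 tested prostate epithelial and 5 endothelial markers was called by limma (0 and 1 at an unadjusted p under 0.05), and no marker was at 0 in every library. The part of these other cell markers in the chaperone differences below was not tested.

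Chaperone transcripts were abundant in the cultures and spanned a wide range of levels. Of the 69 members, 57 reached a mean of 0.5 FPKM over the 6 libraries and were tested, and 12 did not. Among the tested members 42 averaged at least 10 FPKM and 6 at least 100 FPKM, and their median level was 15.8 FPKM, against 8.68 FPKM for all 12022 tested genes. Together the members made up 0.716% to 0.728% of the summed FPKM of a library. Hsp90ab1, the constitutive cytosolic Hsp90, Hspa8, the constitutive cytosolic Hsp70, and Hspb1, the small heat shock protein Hsp25, held 45.4% to 47.4% of all member FPKM, and the 10 most abundant members held 71.7% to 73.0%. The summed level of all members was 2793, 2882 and 2858 FPKM in S37A libraries and 2836, 2904 and 2907 FPKM in vector libraries. S37A 1 had the lowest sum, and the 2 groups overlapped.

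**Figure D1:**
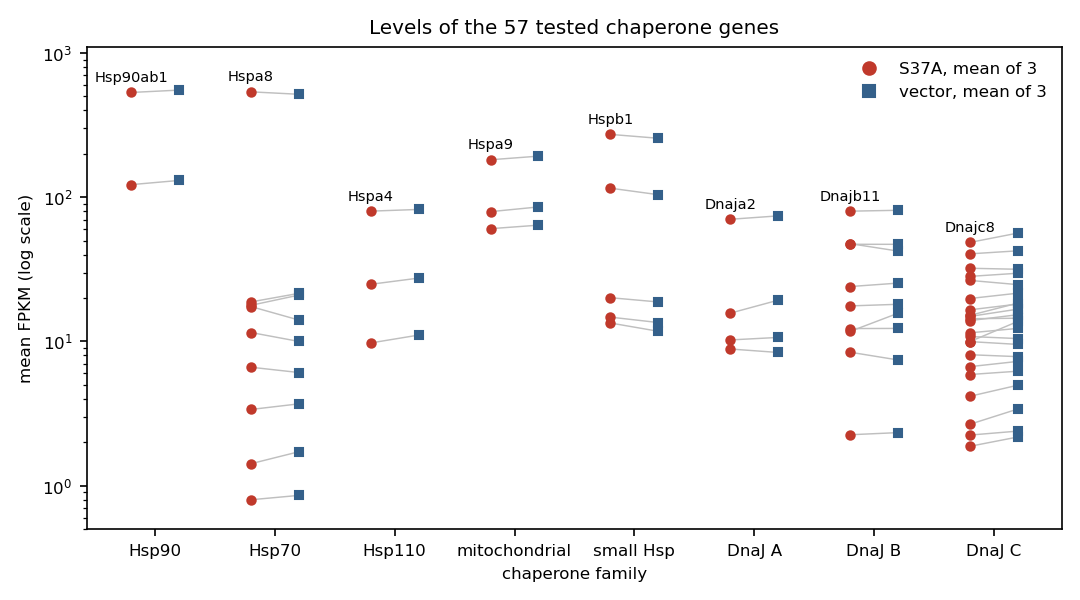
Mean FPKM of the 57 tested chaperone genes (log scale) in S37A (red circles, left) and vector libraries (blue squares, right), n = 3 each, by family, with lines joining the same gene. The lines run nearly level, and the most abundant gene of each family is named.

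Differences between S37A and vector cells were small in these genes. At an adjusted p under 0.05 (limma, adjusted over all 12022 genes), 3 of the 57 tested members were higher in S37A cells (5.26%) and 11 were lower (19.3%), and 43 were not called. Of all tested genes 729 were higher (6.06%) and 2393 lower (19.9%), so the members' shares lay near the background in both directions. The median log2 difference was -0.07 for the members and -0.07 for all genes. The groups did not overlap in 29 members (50.9%), 7 with S37A above and 22 with S37A below, against 47.8% of all genes, 11.3% with S37A above and 36.5% below. The largest change was 0.43 on the log2 scale, and only Dnajc9 and Dnajb14 exceeded 0.3 among called members. Of the called members the median size was 0.21, against 0.24 for all called genes.

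The balance of higher and lower calls moved with the scaling of the libraries, for the members and for all genes. When the FPKM values were rescaled by the median ratio of expressed genes, 8 members were higher (14.0%) and 5 lower (8.77%), against 10.3% and 8.14% of all genes. Quantile normalization called 5 members higher (8.77%) and 5 lower (8.77%), against 9.10% and 7.96% of all genes. Single libraries mattered as well, for the members and for all genes. Here 1 member was higher and 5 were lower without S37A 2, and 1 and 4 without S37A 3. The counts were 1 and 6 without vector 2, and 1 and 8 without vector 3. Of all genes 358 were higher and 867 lower without S37A 2, and 298 and 606 without S37A 3. They were 467 and 1202 without vector 2 and 475 and 1255 without vector 3, against 729 and 2393 with all 6 libraries. Vector 2 was the library with the highest value in 25 of the 57 members (43.9%), and the same held for 36.6% of all genes. For 42 of the 57 tested members the difference kept its sign in every alternative.

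**Figure D2:**
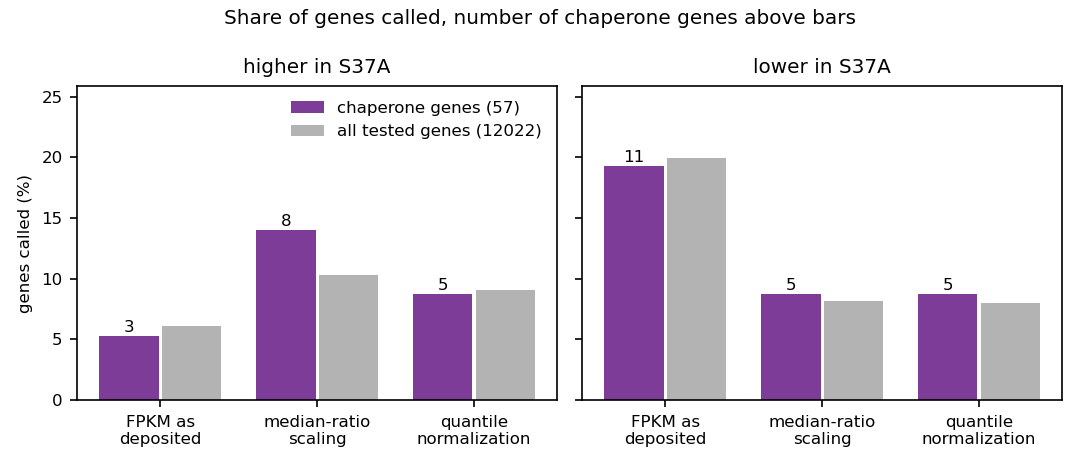
Share of genes called higher (left panel) and lower (right panel) in S37A cells, for the 57 chaperone genes (purple, number above the bar) and all 12022 tested genes (grey), under 3 scalings. The purple and grey bars lie close together in each pair, and the split between higher and lower calls depends on the scaling.

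**Figure D3:**
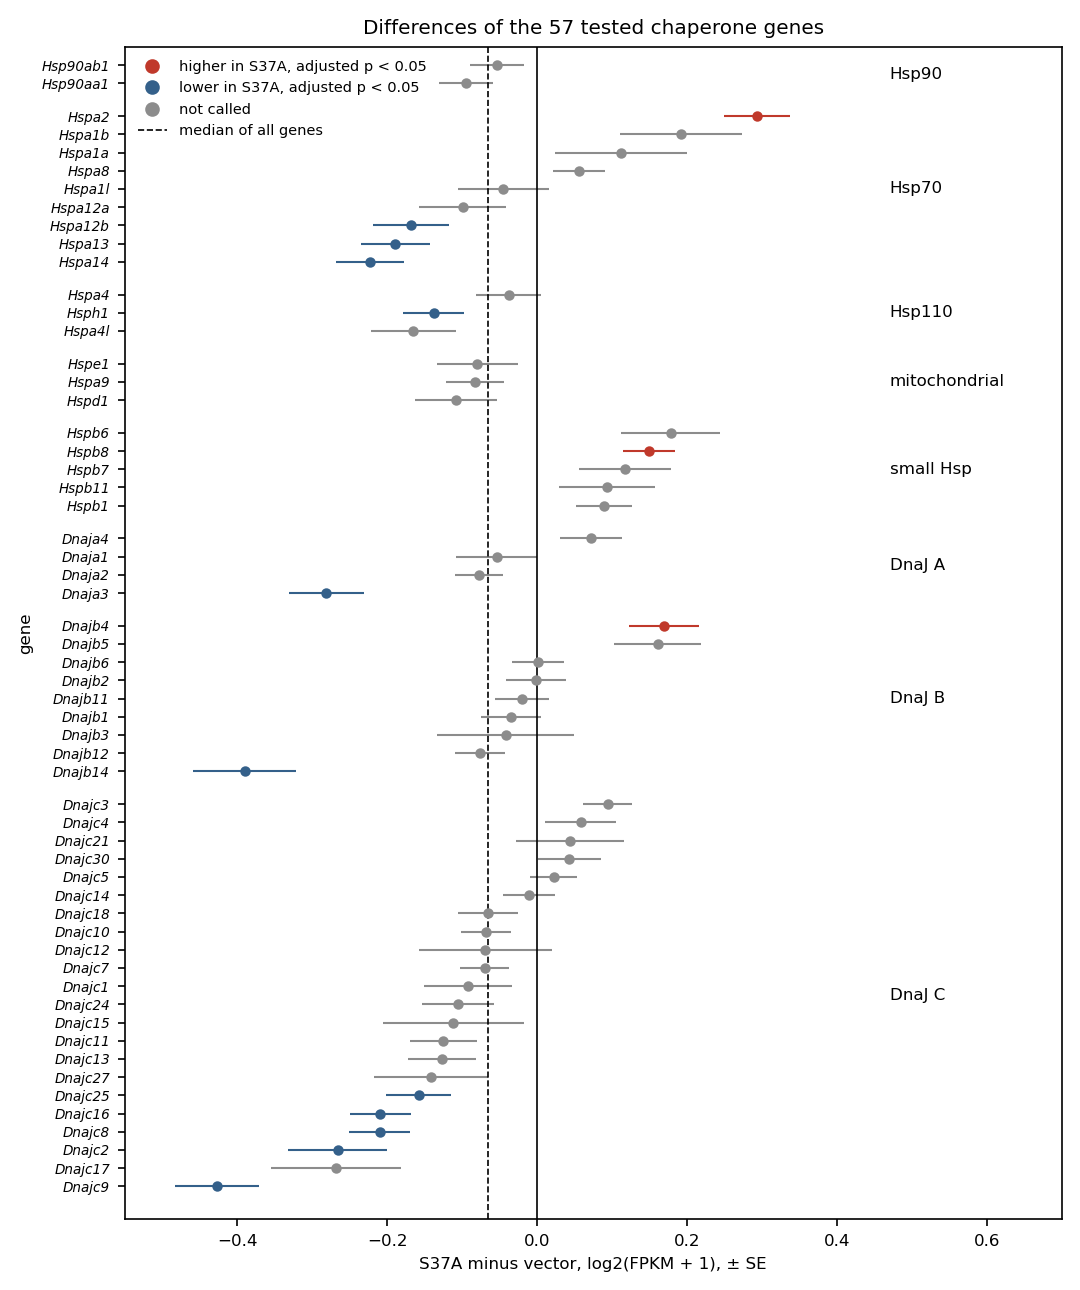
Log2 difference, S37A minus vector, of each tested chaperone gene with its standard error from limma, by family; red is called higher and blue called lower. All 5 small heat shock genes lie right of 0, most DnaJ C genes lie left of it, and the dashed line marks the median of all genes.

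The 2 cytosolic Hsp90 genes were not called by limma, and 1 of them, Hsp90aa1, had an unadjusted p under 0.05. Hsp90ab1 measured 521, 542 and 534 FPKM in S37A libraries and 533, 563 and 562 FPKM in vector libraries, with overlapping groups (log2 difference -0.05, SE 0.04, adjusted p = 0.289 by limma). Hsp90aa1, the stress-inducible form, measured 123, 123 and 121 FPKM in S37A libraries and 126, 136 and 130 FPKM in vector libraries (-0.09, SE 0.04, adjusted p = 0.0907). All S37A values of Hsp90aa1 lay below all vector values, yet the difference missed the threshold, and the sign of the Hsp90ab1 difference turned to 0.02 under median-ratio scaling.

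Among the 9 Hsp70 genes, Hspa2 was higher in S37A cells and Hspa13, Hspa14 and Hspa12b were lower. Of all genes 6.06% were called higher and 19.9% lower. Hspa2 (chromosome 12, 76404176 to 76406938, mm10, plus strand), best known for its need in mouse sperm formation, measured 17.8, 17.1 and 17.5 FPKM in S37A libraries and 14.5, 13.3 and 14.4 FPKM in vector libraries. The difference of 0.29 on the log2 scale (SE 0.04, adjusted p = 0.00799 by limma) was the largest rise among the members, and it was called in each of its 13 alternatives. The 2 groups were well apart and each was tight.

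Hspa14, an Hsp70 that in human cells sits with the DnaJ protein Dnajc2 on ribosomes, measured 17.7, 18.3 and 17.4 FPKM in S37A libraries and 20.2, 22.2 and 20.6 FPKM in vector libraries (-0.22, SE 0.05, adjusted p = 0.0159, or 0.0618 without S37A 3). Its annotated exons share 17.9% of their bases with Gm45902, a gene on the same strand, so part of the reads may belong to that gene. Hspa13, an Hsp70 of the endoplasmic reticulum, measured 19.6, 18.0 and 18.8 FPKM in S37A libraries and 21.4, 22.5 and 20.8 FPKM in vector libraries (-0.19, SE 0.05, adjusted p = 0.0269). Its adjusted p was 0.0844, 0.0814 and 0.0688 without S37A 2, S37A 3 and vector 2, 0.119 under median-ratio scaling (-0.12) and 0.0787 under quantile normalization. Pairing same-numbered libraries gave Hspa13 an adjusted p of 0.0658 by limma. Its more abundant transcript model, of 471 residues, was not called alone (-0.12, SE 0.06, adjusted p = 0.2005 by limma over all models). The other Hspa13 model was listed at 0 in S37A 2 and at 2.49 to 3.28 FPKM in the other libraries. Hspa12b, a distant Hsp70 relative known from endothelial cells, was low in all libraries. It measured 1.39, 1.38 and 1.49 FPKM in S37A libraries and 1.74, 1.80 and 1.62 FPKM in vector libraries (-0.17, SE 0.05, adjusted p = 0.0492). Leaving out any one library ended the Hspa12b call (adjusted p 0.0696 to 0.133), and the call held in 1 of 13 alternatives.

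The most abundant Hsp70, Hspa8, and the heat-inducible pair Hspa1a and Hspa1b were not called. Hspa8 measured 529, 549 and 534 FPKM in S37A libraries and 500, 522 and 529 FPKM in vector libraries (0.06, SE 0.04, adjusted p = 0.261), and it was called only under median-ratio scaling (adjusted p = 0.0351). Hspa1b measured 10.8, 12.0 and 11.8 FPKM in S37A libraries and 10.9, 8.70 and 10.4 FPKM in vector libraries (adjusted p = 0.113). Hspa1a measured 6.36, 6.61 and 6.91 FPKM in S37A libraries and 6.88, 5.16 and 6.22 FPKM in vector libraries (adjusted p = 0.358). In both of these genes vector 2 was the lowest library and the groups overlapped. Their transcripts are 97.5% identical over 2277 aligned bases, so the split of reads between them is uncertain. Of the remaining Hsp70 genes, Hspa12a and Hspa1l were not called, and 71.9% of the annotated exon bases of Hspa1l lie opposite the antisense gene Gm10501.

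In the Hsp110 family of Hsp70 nucleotide exchange factors, 1 of 3 genes was called lower, beside 19.9% of all genes. Hsph1, a stress-inducible Hsp110 whose promoter holds a 2-unit element, measured 23.7, 25.9 and 25.1 FPKM in S37A libraries and 28.0, 27.5 and 27.0 FPKM in vector libraries (-0.14, SE 0.04, adjusted p = 0.0448). Its groups did not overlap, but without any one library the adjusted p was 0.0635 to 0.110, and it was also above the threshold with no filter (0.0616), with no trend (0.0585), under median-ratio scaling (0.237) and under quantile normalization (0.153). With same-numbered libraries paired the adjusted p was 0.0884 by limma. Hspa4, the most abundant of the 3, measured 76.5, 82.7 and 81.0 FPKM in S37A libraries and 85.1, 78.9 and 82.7 FPKM in vector libraries, with overlapping groups (adjusted p = 0.527). Hspa4l was not called (-0.16, SE 0.06, adjusted p = 0.0691).

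The mitochondrial Hsp70 and chaperonin genes were not called by limma either, and 0 of the 3 had an unadjusted p under 0.05. Hspa9, the Hsp70 that pulls proteins into mitochondria, measured 175, 186 and 185 FPKM in S37A libraries and 187, 199 and 192 FPKM in vector libraries (-0.08, SE 0.04, adjusted p = 0.147). Hspd1, the chaperonin Hsp60, measured 73.6, 82.4 and 82.2 FPKM in S37A libraries and 81.4, 86.5 and 88.9 FPKM in vector libraries (-0.11, SE 0.06, adjusted p = 0.172). Hspe1, its lid Hsp10, measured 56.5, 62.8 and 62.2 FPKM in S37A libraries and 62.8, 61.6 and 67.6 FPKM in vector libraries (-0.08, SE 0.05, adjusted p = 0.290). S37A 1 was the lowest library for all 3 genes. The 2 genes that share the promoter printed above had differences of like sign and size, within the spread between libraries. Hspa9 (-0.08) and the median of all genes (-0.07) lay near them, so this likeness is not particular to the pair.

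The small heat shock genes were the family with all differences on the positive side, though 1 of 5 tested genes was called. As deposited, 6.06% of all genes were called higher. Hspb8 (chromosome 5, 116408491 to 116422864, mm10, minus strand), which works with the co-chaperone Bag3 in clearing misfolded proteins, measured 114, 115 and 117 FPKM in S37A libraries and 107, 101 and 104 FPKM in vector libraries (0.15, SE 0.04, adjusted p = 0.0231). Every S37A value of Hspb8 lay above every vector value. The call held in 9 of 14 alternatives, and its adjusted p was 0.0691, 0.0858, 0.0561 and 0.0621 without S37A 2, S37A 3, vector 2 and vector 3. With same-numbered libraries paired it was 0.0520 by limma.

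Hspb1 measured 265, 274 and 279 FPKM in S37A libraries and 255, 249 and 265 FPKM in vector libraries (0.09, SE 0.04, adjusted p = 0.111), and its adjusted p was 0.0247 under median-ratio scaling. Hspb6, known as Hsp20 in smooth muscle, measured 14.2, 13.4 and 12.7 FPKM in S37A libraries and 12.3, 12.3 and 10.6 FPKM in vector libraries (0.18, SE 0.07, adjusted p = 0.0831). The groups of Hspb6 did not overlap, while those of Hspb1 did by a narrow margin. Hspb7, a small heat shock protein of heart and muscle, and Hspb11, which despite its name is a subunit of the ciliary transport machinery, had differences of 0.12 and 0.09 (adjusted p = 0.183 and 0.301). All 5 differences were positive as deposited, under median-ratio scaling and under quantile normalization. Of all 57 tested members 18, 28 and 27 differences were positive in the same settings. Under those 2 rescalings 3 and 1 of the small heat shock genes were called higher, beside 10.3% and 9.10% of all genes. Summed over the family, the level was 428, 438 and 445 FPKM in S37A libraries and 408, 393 and 413 FPKM in vector libraries, with no overlap. Hspb1 and Hspb8 held most of this sum. The smooth muscle markers Acta2, Tagln, Myh11, Cnn1 and Des were called higher in the same libraries, and their part in the small heat shock values was not tested.

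DnaJ genes, the J-domain partners of Hsp70, were more often lower than higher as deposited, as all genes were (6.06% higher and 19.9% lower). Of 35 tested DnaJ genes 1 was called higher and 7 lower, and of 22 tested Hsp genes 2 were higher and 4 lower. Under median-ratio scaling the counts were 3 higher and 4 lower DnaJ genes and 5 higher and 1 lower Hsp genes, with 10.3% and 8.14% of all genes higher and lower. Under quantile normalization they were 3 and 4 DnaJ genes and 2 and 1 Hsp genes, with 9.10% and 7.96% of all genes higher and lower. The difference between the 2 families was not tested. Their summed level was 698, 703 and 702 FPKM in S37A libraries and 732, 747 and 727 FPKM in vector libraries, with no overlap as deposited. After median-ratio scaling the sums were 725, 716 and 716 in S37A libraries and 720, 721 and 709 in vector libraries, and the groups overlapped.

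In the DnaJ A family, Dnaja3 was lower in S37A cells and the other 3 genes were not called. Of all genes 19.9% were called lower and 6.06% higher. Dnaja3 (chromosome 16, 4639989 to 4707695, mm10, plus strand), the mitochondrial J protein Tid1, measured 16.1, 15.3 and 15.7 FPKM in S37A libraries and 19.0, 20.6 and 18.3 FPKM in vector libraries (-0.28, SE 0.05, adjusted p = 0.0118). The groups were clearly apart, and the call held in each of 13 alternatives. Dnaja2, a general cytosolic partner of Hspa8, measured 68.4, 71.1 and 71.4 FPKM in S37A libraries and 73.4, 75.1 and 74.1 FPKM in vector libraries (-0.08, SE 0.03, adjusted p = 0.108). Here too all S37A values were below all vector values without passing the threshold.

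The DnaJ B family held 1 higher and 1 lower gene among 9 tested, beside 6.06% of all genes called higher and 19.9% lower. Dnajb4, a cytosolic DnaJ protein abundant in muscle, measured 47.3, 47.2 and 48.4 FPKM in S37A libraries and 45.1, 40.0 and 41.9 FPKM in vector libraries (0.17, SE 0.05, adjusted p = 0.0371). All S37A values of Dnajb4 were above the vector values, and the call was lost without S37A 1, 2 or 3 or vector 2 or 3 (adjusted p 0.0752 to 0.115), with no filter (0.0608) and with no trend (0.0501). The call was also lost with same-numbered libraries paired (adjusted p = 0.0630 by limma). Dnajb14 (chromosome 3, 137867675 to 137916557, mm10, plus strand), a J protein of the endoplasmic reticulum membrane, measured 12.7, 10.8 and 11.7 FPKM in S37A libraries and 15.2, 16.9 and 14.8 FPKM in vector libraries (-0.39, SE 0.07, adjusted p = 0.0115). Its call held in each of 14 alternatives.

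Dnajb12, the closest relative of Dnajb14 in the same membrane, measured 23.9, 24.5 and 23.6 FPKM in S37A libraries and 25.0, 25.8 and 25.3 FPKM in vector libraries and was not called (-0.08, SE 0.03, adjusted p = 0.120). Dnajb1, the heat-inducible cytosolic Hsp40, measured 17.2, 18.5 and 17.3 FPKM in S37A libraries and 18.3, 17.7 and 18.2 FPKM in vector libraries, with overlapping groups (adjusted p = 0.527). Dnajb11, an endoplasmic reticulum J protein and the most abundant DnaJ gene here, measured 82.3, 79.3 and 78.4 FPKM in S37A libraries and 83.9, 80.2 and 79.4 FPKM in vector libraries (adjusted p = 0.700). In neither of the last 2 genes was a difference detectable beyond the spread. Dnajb5 had S37A values of 8.38 to 8.45 FPKM above vector values of 6.72 to 7.83 FPKM but was not called (0.16, SE 0.06, adjusted p = 0.0764). It was called higher under median-ratio scaling and under quantile normalization (lowest adjusted p = 0.0437).

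The DnaJ C family, the most diverse, held 5 lower and 0 higher genes among 22 tested by limma, or 8 and 1 at an unadjusted p under 0.05, beside 19.9% of all genes called lower and 6.06% higher. Under median-ratio scaling and under quantile normalization 2 were lower and 1 was higher, Dnajc3, an endoplasmic reticulum J protein. Of all genes 8.14% and 7.96% were lower and 10.3% and 9.10% higher under these 2 scalings. Dnajc9 (chromosome 14, 20384638 to 20388910, mm10, minus strand), known in human cells as a chaperone of newly made histones H3 and H4, measured 9.65, 9.84 and 10.4 FPKM in S37A libraries and 13.4, 14.8 and 13.1 FPKM in vector libraries. The fall of 0.43 on the log2 scale was the largest change of any member (SE 0.06, adjusted p = 0.00560), and it was called in each of 14 alternatives. Dnajc8, a nuclear protein found with the human splicing machinery, measured 48.3, 48.9 and 48.5 FPKM in S37A libraries and 58.5, 57.4 and 53.2 FPKM in vector libraries (-0.21, SE 0.04, adjusted p = 0.0151). S37A values of Dnajc8 were nearly identical to each other and below every vector value, and the adjusted p was 0.0569 without S37A 3 and 0.0569 under median-ratio scaling.

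Dnajc2, the ribosome-bound partner of Hspa14, measured 14.8, 14.4 and 16.3 FPKM in S37A libraries and 17.0, 19.9 and 18.4 FPKM in vector libraries (-0.27, SE 0.07, adjusted p = 0.0276). Both genes of that ribosome-bound pair were thus lower in S37A cells, but the Dnajc2 call was lost without S37A 1, S37A 2, vector 2 or vector 3 (adjusted p 0.0682 to 0.0857), with no filter (0.0550), under median-ratio scaling (0.0636) and under quantile normalization (0.0533). Pairing same-numbered libraries gave Dnajc2 an adjusted p of 0.0546 by limma. Dnajc16 measured 4.22, 4.13 and 4.14 FPKM in S37A libraries and 4.82, 5.05 and 5.04 FPKM in vector libraries (-0.21, SE 0.04, adjusted p = 0.0151, or 0.0530 and 0.0598 without S37A 2 and S37A 3 and 0.0803 under quantile normalization, where the difference was -0.12). With same-numbered libraries paired its adjusted p was 0.0512 by limma. Dnajc25 measured 14.6, 14.8 and 15.4 FPKM in S37A libraries and 16.9, 17.3 and 15.9 FPKM in vector libraries (-0.16, SE 0.04, adjusted p = 0.0360). Both genes had groups that did not overlap. The Dnajc25 call was lost without S37A 1, 2 or 3 or vector 1 or 2 (adjusted p 0.0682 to 0.102), with no filter (0.0544), under median-ratio scaling (-0.09, 0.159) and under quantile normalization (-0.10, 0.122). The Dnajc25 call was also lost with same-numbered libraries paired (adjusted p = 0.0847 by limma). Of its annotated exon bases 7.88% are shared with Gm20503 on the same strand. Dnajc10, an endoplasmic reticulum J protein that reduces disulphide bonds, measured 40.6, 40.8 and 39.9 FPKM in S37A libraries and 42.1, 43.8 and 41.6 FPKM in vector libraries and was not called (-0.07, SE 0.03, adjusted p = 0.161).

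**Figure D4:**
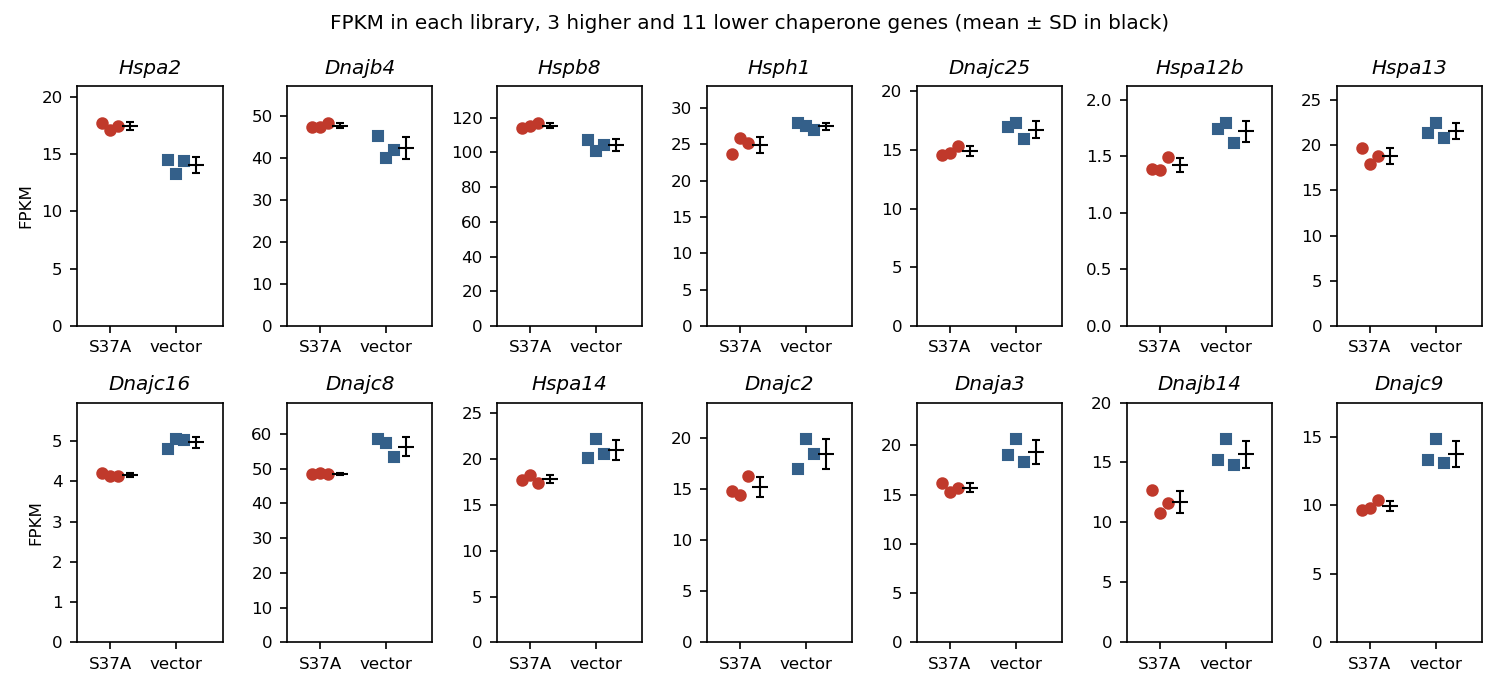
FPKM in each library of the 14 called chaperone genes, with S37A (red circles) left of vector (blue squares) in each panel and the mean ± SD (n = 3) in black; each axis starts at 0. The first 3 panels are the genes higher in S37A and the other 11 those lower, and in each panel the groups do not overlap.

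Dnajb6 is a J protein known for holding back polyglutamine aggregation. Its summed level was alike in both groups, while the estimates for its transcript models differed. The gene measured 45.9, 48.1 and 47.4 FPKM in S37A libraries and 47.6, 45.9 and 47.9 FPKM in vector libraries, a difference of 0.00 (SE 0.04, adjusted p = 0.991). Of its 4 deposited models 2 were detected: a long one of 2708 bases that encodes 365 residues and a short one of 1642 bases that encodes 242. In humans the long protein is known to be nuclear and the short one mainly cytosolic. The long model measured 29.9, 29.2 and 28.7 FPKM in S37A libraries and 33.4, 34.8 and 34.5 FPKM in vector libraries. The short model measured 16.0, 18.9 and 18.8 FPKM in S37A libraries and 14.2, 11.1 and 13.4 FPKM in vector libraries. The 2 models thus differed in opposite directions, with no overlap of the groups in either. With the summed level unchanged, a lower estimate for 1 model comes with a higher one for the other. The 2 levels and the share given below therefore describe 1 division of the same reads and not separate results. The share of all models with groups that do not overlap was not computed.

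This look at single models was added after the data were seen, and it covered all 14550 models with a mean of at least 0.5 FPKM, of which 381 were higher (2.62%) and 770 lower (5.29%). The long model of Dnajb6 was called lower (-0.22, SE 0.03, adjusted p = 0.0263), and the short model was not called (0.45, SE 0.11, adjusted p = 0.0607). Over the alternatives the adjusted p ran from 0.0201 to 0.113 for the long model and from 0.0409 to 0.165 for the short one. The long model was called in 6 of 13 alternatives and the short model in 1 of 13. The long model's call was lost without S37A 1, 2 or 3 or vector 2 or 3 (adjusted p 0.0571 to 0.109 by limma). It was also lost under median-ratio scaling (0.0532) and with same-numbered libraries paired (0.113). The short model's share of the gene was 34.8%, 39.4% and 39.6% in S37A libraries and 29.9%, 24.2% and 27.9% in vector libraries, on average 37.9% ± 2.69 and 27.3% ± 2.93 (SD, n = 3 each). An exact two-sided permutation test of these shares gave p = 0.1, which is the lowest p possible with 3 libraries a group. The assignment of reads to models is an estimate and can be unstable: of the 3 models of Dnaja1, which encode the same 397 residues, the longest measured 0, 0 and 2.91 FPKM in S37A libraries and 3.21, 3.03 and 3.31 FPKM in vector libraries. In all, 19 members had several models, and 6 of them had at least 2 models above the filter.

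**Figure D5:**
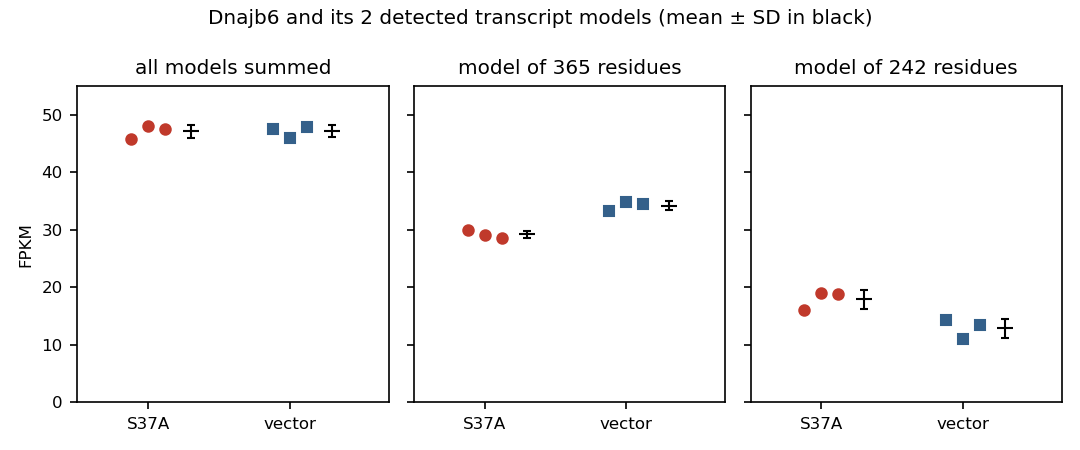
FPKM of Dnajb6 in each library for all models summed (left), the model of 365 residues (middle) and the model of 242 residues (right), with S37A (red circles) left of vector (blue squares) and mean ± SD (n = 3) in black. The sums overlap at 45.9 to 48.1 FPKM, the long model is lower in all S37A libraries and the short model is higher in all of them.

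Of the 12 members below the filter, Dnajb13, Dnajb8, Dnajc19, Dnajc5g and Hspb2 were listed at 0 in every library. Dnajb7, Dnajc22, Dnajc5b, Dnajc6, Hspb3 and Hspb9 were listed at 0 to 0.594 FPKM. Several of these genes are known from testis, brain or muscle. Dnajc28 was the only one with groups that did not overlap, at 0.373, 0.312 and 0.337 FPKM in S37A libraries and 0.626, 0.641 and 0.587 FPKM in vector libraries. With 0 as an FPKM estimate, a gene at 0 is listed so and is not shown to be silent: Dnajc19, a subunit of the mitochondrial import motor that most cells use, was listed at 0 throughout.

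The other genes of the chaperone network, taken from lists of co-chaperones and regulators, gave more lower than higher calls, as did all genes (19.9% lower and 6.06% higher). No list was tested as a set, and the counts describe its members only. Of 4 tested genes of the heat shock factors and their binding partner, Hsf2 and Hsf4 were lower. Hsf1, the main heat shock regulator, measured 16.8, 17.2 and 18.0 FPKM in S37A libraries and 18.3, 18.5 and 18.7 FPKM in vector libraries. All its S37A values lay below all vector values, but it was not called (-0.09, SE 0.04, adjusted p = 0.119 by limma). Hsf2 measured 6.51, 7.15 and 6.77 FPKM in S37A libraries and 7.95, 8.21 and 7.82 FPKM in vector libraries (-0.20, SE 0.05, adjusted p = 0.0206). Hsf4 was the lower of the called pair in level, at 2.28 to 2.62 FPKM in S37A libraries and 3.09 to 3.36 FPKM in vector libraries (-0.31, SE 0.06, adjusted p = 0.0115). Of 12 tested Hsp70 co-chaperones 1 was higher, Bag2 (0.22, adjusted p = 0.0110), and 5 were lower, among them St13, which passes clients between Hsp70 and Hsp90 (-0.21, adjusted p = 0.0151). Of 18 tested Hsp90 co-chaperones 0 were higher and 7 lower (0 and 12 at an unadjusted p under 0.05 in limma), led by Cdc37, which brings kinases to Hsp90 (-0.20, adjusted p = 0.0106), and Ttc4 (-0.26, adjusted p = 0.0108).

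The cytosolic chaperonin TRiC and its partner prefoldin had 14 tested subunits, of which Pfdn6 was lower (-0.32, adjusted p = 0.0273) and 13 were not called. Of 10 mitochondrial co-chaperones and proteases 3 were lower, namely Lonp1 (-0.32, adjusted p = 0.0134), Clpb (-0.34, adjusted p = 0.0151) and Clpp. Of 8 other heat-inducible genes Serpinh1, the collagen chaperone, was higher (0.19, adjusted p = 0.0297), and Hmox1, the haem-degrading enzyme (-0.43, adjusted p = 0.00771), Ubb and Hspbap1 were lower. Cryab, a small heat shock gene outside the naming pattern, measured 342, 340 and 348 FPKM in S37A libraries and 333, 296 and 313 FPKM in vector libraries. All its S37A values lay above all vector values, but it was not called (0.13, SE 0.05, adjusted p = 0.0727 by limma). After median-ratio scaling 8.14% of all genes were called lower. The lower calls were then 1 among the heat shock factors, 0 among the Hsp70 co-chaperones and 2 among the Hsp90 co-chaperones. They were 0 in the chaperonin list and 2 in the mitochondrial list. Of 10 immediate-early genes, which mark recent handling of cells, Dusp1 was higher and Ier2, Egr1 and Atf3 were lower. As deposited, 6.06% of all genes were higher and 19.9% lower. The summed levels of the immediate-early genes were 718 to 778 FPKM in S37A and 714 to 816 FPKM in vector libraries. Their part in the chaperone values was not tested.

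Promoter letters and calls were set side by side as a last description. Of the 14 members whose windows held a 2-unit element 13 were tested, and 1 was called higher (Dnajb4) and 1 lower (Hsph1), beside 6.06% and 19.9% of all genes. Under median-ratio scaling Hspb1 and Hspb6 of these members were called higher as well, and the Hsph1 call was lost (adjusted p = 0.237). Of all genes 10.3% were higher and 8.14% lower under that scaling. The 3 members with a 3-unit element, Hspd1, Hspe1 and Dnajb6, were tested and not called at gene level. Hspb6, the member with TCF/LEF letters, was not called as deposited and was called higher under median-ratio scaling (adjusted p = 0.0464).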

How the data were processed

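RNA of 6 libraries, 3 S37A and 3 vector, was measured in mouse prostate stromal cells with a SMART-Seq v4 kit that does not mark strand. The submitters' processing notes name the mm10 build and the tools bcl2fastq 1.8.3, TopHat and Cufflinks. The authors' deposited files give FPKM per transcript model with its interval, a coverage signal per model, a length and a status. Coverage, a signal in the deposited files, was a constant multiple of FPKM within a library. Read counts were not used here, and depth was inferred from interval widths of models of at least 5000 bases, for counting error only.

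FPKM was summed by symbol, and 5 symbols with a status other than OK, none of them members, were left out. Genes averaging 0.5 FPKM or more (12022) were tested on log2(FPKM + 1), which understates changes of low genes, using limma 3.58.1 in R 4.3.3, which fitted an intensity trend and no block. Calls were made at an adjusted p under 0.05 (Benjamini-Hochberg), and each difference is the S37A mean minus the vector mean. Every single member with groups that do not overlap has an exact two-sided permutation p of 0.1, the smallest possible. Groups and replicate numbers come from the sample titles. Gene positions are 1-based from GENCODE M21 and promoters from RefSeq.

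The members, the 12 lists and the tests were chosen with earlier results of these data known. Members named with full statistics are the 2 most abundant of each of 8 families and its called members. The other uncalled members (Hspa1a, Hspa1b, Hspa4l, Hspe1, Hspb6, Hspb7, Hspb11, Dnajb1, Dnajb5, Dnajb12, Dnaja1, Dnajc3 and Dnajc28), the Dnajb6 models and Cryab were named after their values were seen. Alternatives changed the pseudocount (0.1), the filter (none, or 5 FPKM), the scaling (median-ratio or quantile), the trend and the block, kept genes with 1 model, or left out 1 library. The test script was checked on simulated data.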

Additional observations from a re-analysis of the deposited data

How the results depend on the processing

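Of the 14 called members, 13 remained called with a pseudocount of 0.1, 9 with no filter, 12 of 12 tested with a filter of 5 FPKM, 12 with no trend, 8 under each of median-ratio scaling and quantile normalization, and 5 to 11 without 1 library; 5 and 2 other members were called under the 2 rescalings. For all genes, higher calls numbered 1243 under median-ratio scaling, 1094 under quantile normalization and 298 to 747 without 1 library, and lower calls 978, 957 and 606 to 2401. Members called higher numbered 8, 5 and 1 to 3 under the same settings, and members called lower 5, 5 and 4 to 9. Among genes with 1 transcript model (43 members tested) 1 member was higher and 7 lower. Of all 8424 such genes tested 492 were higher and 1634 lower. The replicate block, with same-numbered libraries paired, gave 442 higher and 1193 lower genes and 1 higher and 5 lower members. Of the 14 called members 6 remained called with that block. Deviations of same-numbered libraries from their group means correlated at -0.12, 0.02 and 0.10. With 3 libraries a group, such centred deviations cannot show whether same-numbered libraries share an origin. The labels do not say what the numbers mean. Signs turned for members near 0: Dnajb11 to 0.052 under median-ratio scaling and 0.003 under quantile normalization, with -0.04 to 0.004 without 1 library; Dnajb6 with -0.018 to 0.02 without 1 library; Dnajc10 to 0.003, Hsp90ab1 to 0.018 and Hspa4 to 0.033 under median-ratio scaling. The cause of these shifts was not tested. With 3 libraries a group and an inferred depth, differences of the size of the spread were not detectable.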
